A study of Mus musculus with 4 samples.

Results

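The genes described here encode the enzymes that build cholesterol and fatty acids, together with the SREBP proteins and partners that control them. They were taken as 33 named symbols, of which 30 were measured by a probe set that named that gene alone, out of 22180 genes measured in this way. Acat2 had no such probe set, and those of Idi1 and Scd2 also named a second gene, so these 3 genes have no value here. For a gene with several probe sets, the brightest by mean signal stands for it.

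Total RNA was measured on 4 Affymetrix arrays. They came from cell aggregates steered towards retina from mouse embryonic stem cells, 2 collected at day 4 and 2 at day 7 of differentiation. Every sample was wild type and came from 1 line, derived from EB5 cells of the 129/Ola strain, in which GFP was knocked in under the Rx promoter. The aggregates were cultured in retinal differentiation medium with matrigel and were profiled whole, so that each value is an average over all their cells, and fewer cells of a type cannot be told apart from less RNA per cell. The labels do not say whether replicates were separate cultures, and if they were not, the p-values here reflect technical spread alone.

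Cholesterol is made from acetyl-CoA in a chain of enzymes. The mevalonate steps produce isoprenoid units, which are joined into squalene. Squalene is closed into lanosterol, the first sterol, and further enzymes trim and rearrange lanosterol into cholesterol. Fatty acids start from the same acetyl-CoA, are extended by fatty acid synthase and elongases, and receive their unsaturated bonds from desaturases. Both routes are driven by SREBP transcription factors, which are held in the endoplasmic reticulum by Insig proteins when sterol is plentiful and are escorted to the Golgi by Scap when it is scarce. Neural tissue makes much of its own sterol, and sterol is also needed for Hedgehog signalling in the early brain and eye.

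The arrays had median log2 signals between 5.68 and 5.77 over all probe sets. Markers followed the labelled days. Rax, the gene also called Rx, read 6.14 and 6.82 at day 4 and 7.62 and 8.37 at day 7 (adjusted p = 0.021, limma). Of the neural progenitor list 9 of 10 genes were called higher at day 7 by limma, the test used throughout, and of the eye field and optic vesicle list 8 of 12. Pax6 is in both lists. Of the pluripotency and primed epiblast list 6 of 10 were called lower. In the endoderm list 1 of 12 genes was called (Sox17, higher at day 7, adjusted p = 0.0321). In the neural crest and mesenchyme list 7 of 11 were called higher and 1 lower, and in the neuron list 2 of 8 higher and 1 lower. All 30 lipid synthesis genes had a mean signal above the median of all genes, so each is also set against the 11090 genes above that median.

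Because SREBP factors bind sterol regulatory elements in gene promoters, often beside sites for NF-Y, the promoters of the genes were searched for 3 motifs on both strands. These were TCACNCCA, most of the sterol regulatory element, CCAAT, the site of NF-Y, and CACGTG, the E-box, which SREBP and many other factors bind. No motif contains another. The window was the 250 bases before each start site in RefSeq's GRCm38.p6 annotation, and 26 of the 33 genes had 1 or more such windows, Acat2 and Idi1 among them. CCAAT was present for 20 of the 26 (76.9%), against 37.5% of all 27025 genes with a window and 40.8% of those with above-median signal. TCACNCCA was present for 3 of the 26 (Hmgcs1, Msmo1 and Srebf2, 11.5%), against 4.2% of all genes and 3.8% of the brighter ones. CACGTG was present for 6 of the 26 (Hsd17b7, Sc5d, Dhcr7, Insig1, Scap and Elovl5, 23.1%), against 6.86% of all genes and 10.3% of the brighter ones. A match is a string of letters and not a shown binding site. Only these exact strings were counted, so a window without a match may still hold a variant site.

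Shown here are the promoters of the 3 genes with TCACNCCA, with that of the demethylase gene Cyp51, whose replicates lay far apart at both days, and that of Insig1, a feedback gene of the pathway. Each is written 5′ to 3′ on the strand of its gene, and capitals mark the 3 motifs, read on either strand (CCAAT appears as ATTGG on the other). Hmgcs1 lies on the plus strand at chr13:119690101-119690350, Msmo1 on the minus strand at chr8:64733579-64733828, Srebf2 on the plus strand at chr15:82147019-82147268, Cyp51 on the minus strand at chr5:4104698-4104947 and Insig1 on the plus strand at chr5:28071162-28071411.
Hmgcs1: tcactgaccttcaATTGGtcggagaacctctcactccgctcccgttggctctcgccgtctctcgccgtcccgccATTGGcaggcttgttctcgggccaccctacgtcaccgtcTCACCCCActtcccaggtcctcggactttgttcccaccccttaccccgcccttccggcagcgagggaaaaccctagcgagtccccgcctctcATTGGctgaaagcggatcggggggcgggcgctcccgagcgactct
Msmo1: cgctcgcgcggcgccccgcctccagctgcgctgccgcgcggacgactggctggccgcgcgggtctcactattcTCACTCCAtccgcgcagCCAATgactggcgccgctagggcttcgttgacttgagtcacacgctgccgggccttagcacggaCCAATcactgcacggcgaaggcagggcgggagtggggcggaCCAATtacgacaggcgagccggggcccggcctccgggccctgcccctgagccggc
Srebf2: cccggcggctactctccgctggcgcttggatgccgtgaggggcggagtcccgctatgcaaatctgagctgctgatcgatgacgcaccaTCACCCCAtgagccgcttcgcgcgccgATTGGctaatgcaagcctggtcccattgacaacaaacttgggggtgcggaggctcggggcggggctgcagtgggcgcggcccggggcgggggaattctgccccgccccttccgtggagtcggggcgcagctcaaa
Cyp51: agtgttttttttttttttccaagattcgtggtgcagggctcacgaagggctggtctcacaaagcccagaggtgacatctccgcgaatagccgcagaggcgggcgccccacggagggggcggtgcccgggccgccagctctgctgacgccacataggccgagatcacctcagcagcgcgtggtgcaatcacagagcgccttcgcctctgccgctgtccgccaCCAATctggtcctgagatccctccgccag
Insig1: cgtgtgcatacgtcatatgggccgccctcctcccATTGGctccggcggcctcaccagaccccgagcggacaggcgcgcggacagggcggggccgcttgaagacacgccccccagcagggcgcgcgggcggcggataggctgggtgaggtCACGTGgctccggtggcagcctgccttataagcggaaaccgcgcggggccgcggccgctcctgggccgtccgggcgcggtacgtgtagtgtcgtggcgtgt

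Counted from the start site, the TCACNCCA match began at -137 in Hmgcs1, at -177 in Msmo1 and at -162 in Srebf2. CCAAT lay 3 times in the Hmgcs1 window and 3 times in that of Msmo1. The windows of Srebf2, Cyp51 and Insig1 held it 1 time each.

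Between day 4 and day 7 none of the 30 measured genes of this group passed the test. limma called 0 of the 30 genes, higher or lower, while it called 6.15% of all genes higher and 4.33% lower, and 9.75% and 6.38% of the genes above the median signal. At an unadjusted p under 0.05 there were 4 of the 30 (13.3%: Ebp, Insig2, Scap and Fads1), against 23.1% of all genes. The median difference was 0.11 log2, with a range from -0.33 (Insig2) to 0.55 (Fads1), while the median of all genes was -0.0036. Both day 7 values lay above both day 4 values for 9 genes and below them for 4, against 25.6% and 25.1% of all genes. Of the 11090 genes above the median signal, 3788 lay above and 3218 below in this way. The days overlapped for the other 17 of the 30. A p that misses the threshold does not show that the days were equal: the 95% interval of a single gene reached between 0.32 and 0.55 log2 to either side of its difference. The number of arrays limits the precision.

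**Figure D1:**
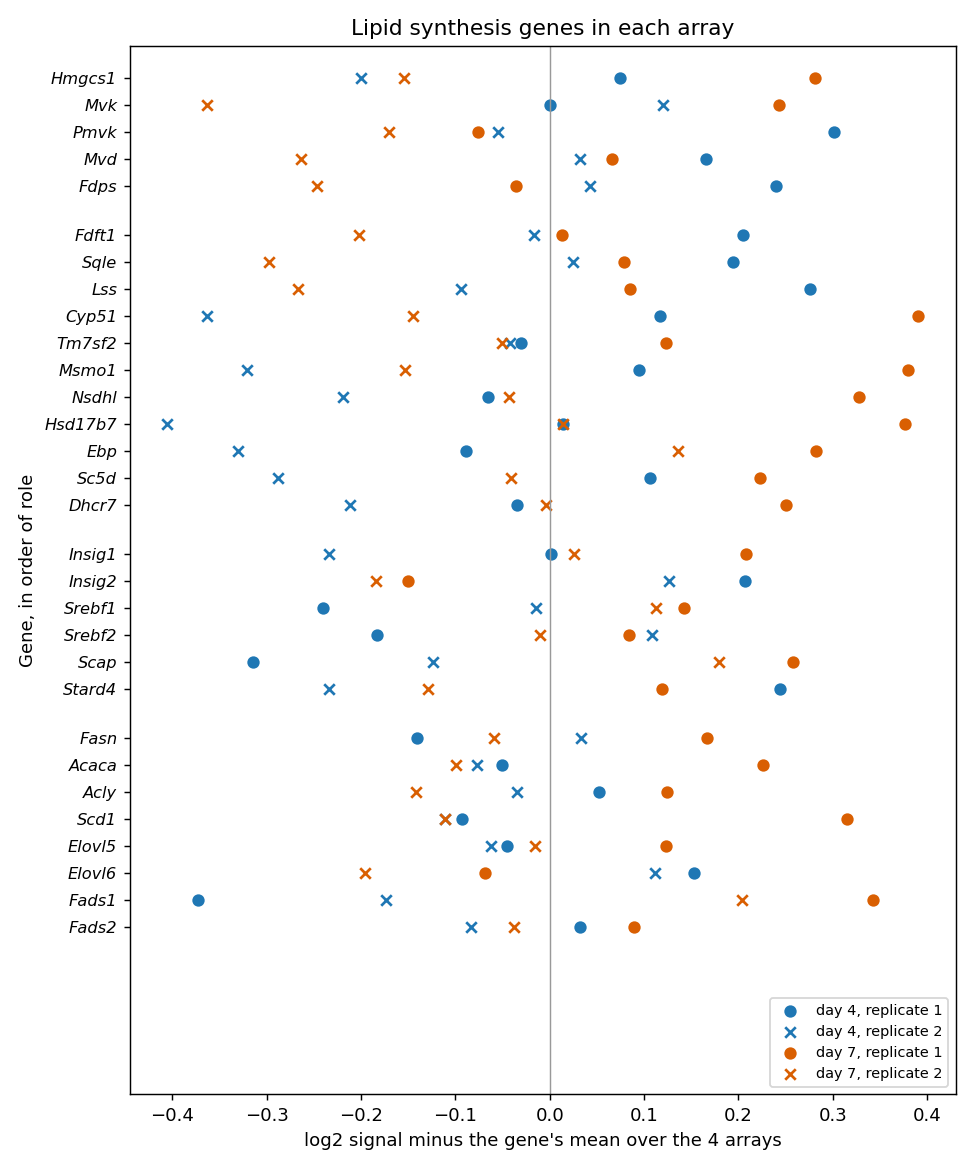
Log2 signal of the 30 measured genes in each of the 4 arrays, drawn as the difference from the mean of the gene over the arrays (x axis, log2) with genes in order of role (y axis). Circles are replicate 1 and crosses replicate 2, blue is day 4 and orange day 7. At day 7 each cross lies to the left of its circle, an order that Srebf1 loses with quantile normalization.

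The mevalonate enzymes showed small differences. Hmgcs1, which makes the HMG-CoA that feeds the route, read 11.60 and 11.33 at day 4 and 11.81 and 11.37 at day 7 (replicates 1 and 2). Its days overlapped, with replicate 1 the higher at each day (log2 difference 0.13, SE 0.193, adjusted p = 0.793). Mvk, mevalonate kinase, read 8.44 and 8.56 at day 4 and 8.68 and 8.07 at day 7, the widest gap between day 7 replicates in the group. Its day 4 values lay inside that gap (log2 difference -0.12). Pmvk, the next kinase, read 8.26 and 7.91 at day 4 and 7.89 and 7.79 at day 7, so that both later values were below both earlier ones (log2 difference -0.25, SE 0.167, adjusted p = 0.476). Mvd, which decarboxylates the product, had overlapping days (log2 difference -0.20). Fdps, which joins isoprenoid units into farnesyl diphosphate, read 11.43 and 11.23 at day 4 and 11.15 and 10.94 at day 7 (log2 difference -0.28, SE 0.156, adjusted p = 0.357). Fdps and Pmvk were the mevalonate genes whose days did not overlap.

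The enzymes that make and close squalene lay on the same side. Fdft1, squalene synthase, read 11.72 and 11.49 at day 4 and 11.52 and 11.31 at day 7 (log2 difference -0.19, adjusted p = 0.585). Sqle, squalene monooxygenase, read 10.35 and 10.18 at day 4 and 10.23 and 9.86 at day 7 (log2 difference -0.22, adjusted p = 0.561). Lss, which forms lanosterol, read 9.80 and 9.43 at day 4 and 9.60 and 9.25 at day 7 (log2 difference -0.18, adjusted p = 0.676). In these 3 genes the day 7 replicate 1 value lay between the day 4 values, so the days overlapped.

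The enzymes of this group that act from lanosterol on had differences of the opposite sign. Cyp51, the lanosterol demethylase, read 9.31 and 8.83 at day 4 and 9.59 and 9.05 at day 7 (log2 difference 0.25, SE 0.234, adjusted p = 0.638). Msmo1, the methylsterol monooxygenase, read 9.998 and 9.58 at day 4 and 10.28 and 9.75 at day 7 (log2 difference 0.23, SE 0.225, adjusted p = 0.655). In both genes the gap between replicates was wider than the gap between days, and the days overlapped. Nsdhl, a sterol dehydrogenase that works with Msmo1, read 10.21 and 10.05 at day 4 and 10.60 and 10.23 at day 7 (log2 difference 0.28, adjusted p = 0.411). Hsd17b7, a sterol ketone reductase, read 7.95 and 7.54 at day 4 and 8.32 and 7.96 at day 7 (log2 difference 0.39, adjusted p = 0.314). In Nsdhl and Hsd17b7 the day 7 values were the higher ones without overlap, for Hsd17b7 by less than 0.01 between the nearest arrays. Ebp, a sterol isomerase, read 8.22 and 7.98 at day 4 and 8.59 and 8.45 at day 7, the largest difference of any sterol enzyme (log2 difference 0.42, SE 0.155, 95% interval 0.053 to 0.78, adjusted p = 0.159). Dhcr7, a reductase of the last steps to cholesterol, read 9.03 and 8.86 at day 4 and 9.32 and 9.06 at day 7 (log2 difference 0.25, adjusted p = 0.445). Ebp and Dhcr7 did not overlap between days either. The sterol reductase gene Tm7sf2 and the sterol desaturase gene Sc5d had log2 differences of 0.072 and 0.18, with overlapping days.

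Read along the route, the difference was below 0 for 7 of the 8 measured members up to lanosterol (median -0.19, Hmgcs1 the exception). It was above 0 for 8 of the 8 members after lanosterol (median 0.25). Lbr, a sterol reductase gene that also acts after lanosterol, was not a member and had the other sign. It read 11.23 and 11.24 at day 4 and 11.12 and 11.01 at day 7 (log2 difference -0.17, adjusted p = 0.565). The place of the division at lanosterol was chosen after the values were seen. No member of either stretch was called, and the difference between the stretches was not tested. Leaving out 1 array moved the medians. Without day 7 replicate 1 they were -0.36 and 0.074, and without day 7 replicate 2 -0.032 and 0.48. Without day 4 replicate 1 they were -0.10 and 0.41, and without day 4 replicate 2 -0.30 and 0.11. Without day 7 replicate 1 the difference was above 0 for 5 of the 8 later enzymes.

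**Figure D2:**
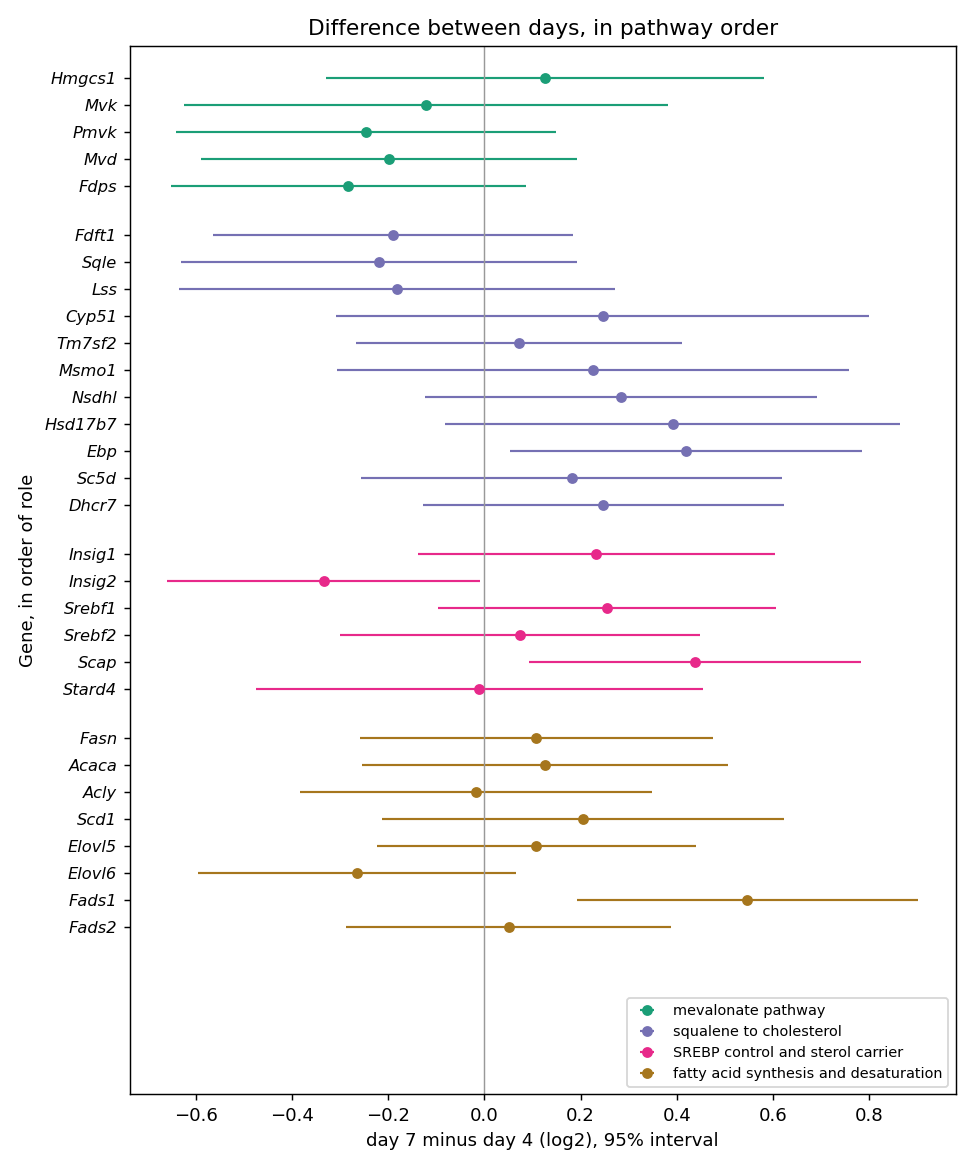
Day 7 minus day 4 difference (x axis, log2) of the 30 genes in pathway order (y axis), with bars for the 95% interval from limma's moderated standard error and colours for the 4 roles. From Mvk to Lss the points lie below 0, from Cyp51 to Dhcr7 above 0, and the bars cross 0 except those of Ebp, Insig2, Scap and Fads1.

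Among the genes that control the pathway, Scap and Insig2 stood furthest from 0. Scap, the escort of SREBP, read 8.34 and 8.53 at day 4 and 8.91 and 8.83 at day 7 (log2 difference 0.44, SE 0.146, 95% interval 0.092 to 0.78, adjusted p = 0.121). Its days did not overlap, but a second, dimmer probe set of Scap read 5.39 and 5.89 at day 4 and 5.73 and 5.33 at day 7, and the mean of both gave a log2 difference of 0.16. Insig2 read 8.19 and 8.11 at day 4 and 7.83 and 7.80 at day 7 (log2 difference -0.33, SE 0.138, 95% interval -0.66 to -0.009, adjusted p = 0.205). Insig1, the Insig gene that is itself an SREBP target, read 10.63 and 10.40 at day 4 and 10.84 and 10.66 at day 7 (log2 difference 0.23, adjusted p = 0.472). So both day 7 values were lower for Insig2 and higher for Insig1. Srebf1, which encodes the SREBP forms best known for fatty acid genes, read 8.13 and 8.35 at day 4 and 8.51 and 8.48 at day 7 (log2 difference 0.26, adjusted p = 0.386). Srebf2, best known for sterol genes, read 10.38 and 10.67 at day 4 and 10.64 and 10.55 at day 7, with the day 7 values inside the day 4 range (log2 difference 0.074, adjusted p = 0.863). Stard4, a cytosolic sterol carrier, read 8.28 and 7.80 at day 4 and 8.15 and 7.90 at day 7, with the day 7 values inside the day 4 range (log2 difference -0.01, 95% interval -0.48 to 0.45).

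Of the fatty acid genes, Fads1 came nearest to a call. This desaturase of polyunsaturated fatty acids read 10.92 and 11.12 at day 4 and 11.64 and 11.50 at day 7 (log2 difference 0.55, SE 0.15, 95% interval 0.19 to 0.90, adjusted p = 0.0667). Both day 7 values were higher, a 1.46-fold difference, and no call was made. Fads1 did pass in limma with each array centred on its median (adjusted p = 0.0449) or with only genes above the median signal (adjusted p = 0.0289). It also passed when limma's prior was made robust and dependent on signal (adjusted p = 0.00446). With 1 array left out its adjusted p lay between 0.057 and 0.357. Fads2, which carries out the preceding desaturation, read 12.35 and 12.23 at day 4 and 12.41 and 12.28 at day 7, with overlapping days (log2 difference 0.051, adjusted p = 0.9). Elovl6, which elongates saturated fatty acids, read 11.66 and 11.62 at day 4 and 11.44 and 11.31 at day 7 (log2 difference -0.26, SE 0.14, adjusted p = 0.333). It was the fatty acid gene whose later values were both lower. Elovl5, an elongase of polyunsaturated chains, read 10.68 and 10.66 at day 4 and 10.85 and 10.71 at day 7, with both later values the higher (log2 difference 0.11, adjusted p = 0.749). Fasn, the fatty acid synthase gene, read 11.56 and 11.73 at day 4 and 11.86 and 11.64 at day 7 (log2 difference 0.11). Its days overlapped, as did those of Acaca, which makes malonyl-CoA, and Acly, which makes cytosolic acetyl-CoA (log2 differences 0.13 and -0.018). Scd1, a desaturase of saturated chains, read 11.19 and 11.17 at day 4 and 11.60 and 11.17 at day 7, so that 1 of its 4 arrays stood above the other values (log2 difference 0.20, adjusted p = 0.599).

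As deposited, the replicates of a day differed from each other in 1 direction for most of these genes, at day 4 for fewer with quantile normalization. With 1 array against 1 array there is no test, and the differences are given as replicate 2 minus replicate 1. Shares of all genes and of the brighter genes are for the values as deposited, also where a count with quantile normalization is given. At day 7 replicate 2 was the lower array for 30 of 30 genes, against 52.6% of all genes and 61.7% of those above the median signal. With quantile normalization the count was 29 of 30, since Srebf1 then had a difference of 0.018. The median difference was -0.24 log2, from -0.61 (Mvk) to -0.03 (Srebf1), where all genes had a median of -0.014 and the brighter genes one of -0.055. A deficit of over 0.25 log2 was seen for 14 of the 30 (12.9% of all genes, 14.1% of the brighter ones), and one of over 0.5 log2 for 3, Mvk, Cyp51 and Msmo1 (1.88% of all genes).

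Most of the genes past 0.25 log2 were sterol enzymes. Of the 16 measured, 11 were lower by over 0.25 log2 in day 7 replicate 2, with a median of -0.34. Cyp51 and Msmo1, which both remove methyl groups from early sterols, differed by -0.53 each, equal to 1.45-fold more signal in replicate 1. Hmgcs1 differed by -0.44, Sqle by -0.38 and Nsdhl by -0.37. Of the 8 fatty acid genes 3 were past 0.25 log2: Scd1 (-0.43), Acaca (-0.33) and Acly (-0.27). Genes of SREBP control stood closer together, with 0 of 6 past that limit and differences from -0.25 (Stard4) to -0.03 (Srebf1). The dimmer probe set of Scap, which is not counted here, was past it, at 5.73 and 5.33 in day 7 replicates 1 and 2.

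At day 4 the sterol enzymes differed between replicates in the same direction, while the other 14 genes were split. Replicate 2 was the lower array for 15 of 16 sterol enzymes (median -0.23), Mvk being the exception at 0.12, and for 14 of 16 with quantile normalization (median -0.15), where Tm7sf2 turned. Of the other 14 genes it was lower for 9 and higher for 5. Over all 30 genes it was lower for 24, against 48.4% of all genes and 61.6% of the brighter ones, and for 18 with quantile normalization, where Tm7sf2, Insig2, Acaca, Scd1, Elovl5 and Elovl6 changed sign. Deficits of over 0.25 log2 were seen for 8 of 30 (16.2% of all genes, 20.0% of the brighter ones). They were largest in Cyp51 (-0.48), Stard4 (-0.48), Hsd17b7 (-0.42) and Msmo1 (-0.42). Srebf2 (0.29), Srebf1 (0.23), Fads1 (0.20), Scap (0.19), Fasn (0.17) and Mvk were the higher ones in replicate 2. So at day 4 the 2 SREBP genes and Scap differed between the replicates with the opposite sign to 15 of the 16 sterol enzymes.

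Taking both days, replicate 2 was lower at each for 24 of 30 genes as deposited, against 29.7% of all genes and 41.5% of the brighter ones. With quantile normalization it was lower at each for 18. The 24 were 15 of the 16 sterol enzymes, Insig1, Insig2 and Stard4, and 6 of the 8 fatty acid genes. As deposited, no gene of the 30 was higher in replicate 2 at both days, and with quantile normalization 1 was, Srebf1 (0.33 and 0.018). Over the 30 genes the differences of the 2 days correlated with r = 0.40 (Spearman's rho 0.44), over the 16 sterol enzymes with r = 0.0024, and over all genes with r = 0.19. The points of each correlation share the same 4 arrays and the genes are not independent. The value over the sterol enzymes rests on Mvk, without which r was 0.44 (rho 0.36) over the other 15. Mvk was left out after its values were seen. Over the sterol enzymes with Insig1 and Stard4 r was -0.036 (rho 0.086), and over the 8 fatty acid genes 0.11 (rho -0.24).

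**Figure D3:**
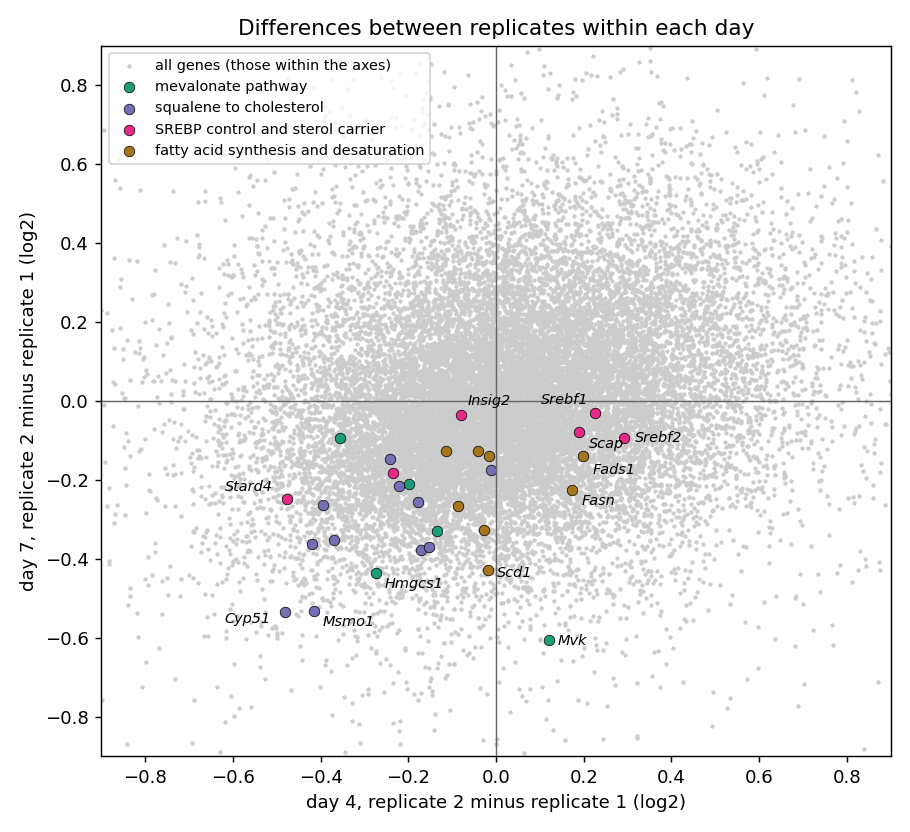
Replicate 2 minus replicate 1 at day 4 (x axis, log2) against the same at day 7 (y axis, log2), for all genes within the axes (grey) and the 30 lipid synthesis genes (coloured by role). All 30 lie below the horizontal line and 24 also left of the vertical one, counts that become 29 and 18 with quantile normalization.

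Other gene lists also differed between the replicates, some of them with the opposite sign. Of all 22180 genes, 10501 were higher in replicate 2 at day 7 and 11430 at day 4. At day 7 the endoderm markers were higher in replicate 2 for 12 of 12 genes (median 0.57). The mean log2 signal of the endoderm list was 7.92 and 7.86 at day 4 against 7.44 and 7.996 at day 7. The widest gap of that list, named after its values were seen, was in Cubn, an endocytic receptor of visceral endoderm, which read 10.75 and 10.23 at day 4 and 9.002 and 10.25 at day 7. Eye field and optic vesicle genes were higher in replicate 2 for 11 of 12 genes at day 7 (median 1.05) and for 11 of 12 at day 4 (median 0.44). The mean of that list was 6.07 and 6.52 at day 4 and 7.83 and 8.98 at day 7. The eye list thus ran opposite to the sterol enzymes at both days, while the endoderm list at day 4 was lower in replicate 2 for 8 of 12 genes. Neural progenitor markers were higher in replicate 2 for 8 of 10 genes at day 4 and 4 of 10 at day 7. Neural crest and mesenchyme markers were higher for 6 of 11 at each day, neuron markers for 2 of 8 at day 4 and 3 of 8 at day 7, and pluripotency and primed epiblast markers for 1 of 10 at day 4 and 9 of 10 at day 7. Lists without cell type markers differed too. At day 7 replicate 2 was higher for 13 of 16 glycolysis and hypoxia genes and 11 of 16 fatty acid oxidation genes. It was higher for 9 of 14 genes of sterol transport, storage and efflux and 4 of 12 of SREBP processing and degradation. For other fatty acid and glycerolipid genes the count was 7 of 22, and for other sterol and isoprenoid genes 1 of 7. The part of the marker genes in the replicate differences of the lipid genes was not tested.

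**Figure D4:**
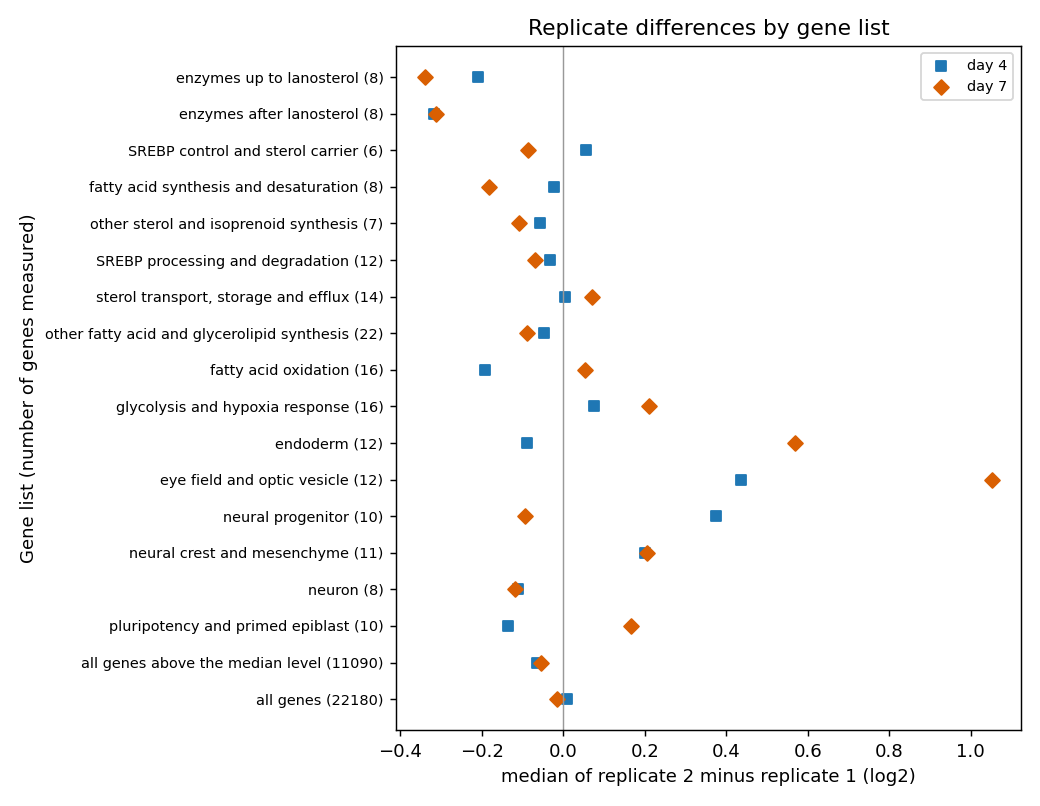
Median of replicate 2 minus replicate 1 (x axis, log2) at day 4 (squares) and day 7 (diamonds) for each gene list (y axis, with the number of genes measured). As deposited, both groups of sterol enzymes lie left of -0.2 at both days, while the eye list lies at 0.44 and 1.05.

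Of 87 genes in 6 lists next to this route, limma called 14 (16.1%), against 10.5% of all genes and 16.1% of the brighter ones. In the list of other sterol and isoprenoid genes 0 of 7 were called and in that of SREBP processing and degradation 0 of 12. The sterol transport, storage and efflux list had 1 higher and 1 lower of 14. Abcg1, a sterol efflux transporter, read 8.51 and 8.36 at day 4 and 6.12 and 6.89 at day 7 (log2 difference -1.93, adjusted p = 0.00369), and Lrp8, a lipoprotein receptor of neural cells, 8.18 and 8.07 at day 4 and 8.85 and 8.67 at day 7 (log2 difference 0.63, adjusted p = 0.0379). Both genes separated the days fully, with Abcg1 lower and Lrp8 higher at day 7. Among 22 other fatty acid and glycerolipid genes Elovl2, an elongase of long polyunsaturated chains (log2 difference 0.88, adjusted p = 0.0137), and Acss2, an acetyl-CoA synthetase (0.63, adjusted p = 0.0314), were called higher. In the same list Acsl4, a fatty acid activating enzyme (-0.94, adjusted p = 0.00977), Elovl7 (-0.77, adjusted p = 0.0453) and Me1, the NADPH-producing malic enzyme (-0.70, adjusted p = 0.0295), were called lower. In the fatty acid oxidation list 3 of 16 were called higher: Acaa2, a thiolase (1.05, adjusted p = 0.00887), Ppargc1a, a coactivator of mitochondrial genes (1.04, adjusted p = 0.0228), and Slc25a20, the carnitine carrier (0.87, adjusted p = 0.049). Ppargc1a was dim, at 3.61 and 3.77 at day 4 and 4.43 and 5.03 at day 7, with a mean below the 25th percentile of all genes (4.60), and a filter at that level removed it. In the glycolysis and hypoxia list 4 of 16 were called lower and 0 higher: Egln3, an oxygen-sensing hydroxylase (-1.81, adjusted p = 0.0149), Bnip3 (-1.16, adjusted p = 0.0255), Pfkp, a phosphofructokinase (-1.14, adjusted p = 0.00413), and Ldha, the lactate dehydrogenase gene, which was named to complete the count after its values were seen (-1.02, adjusted p = 0.0293).

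Leaving out each array in turn, limma called Abcg1 and Egln3 in all 4 fits (adjusted p up to 0.0149 and 0.0298). Lrp8, Acss2 and Me1 passed in 0 of 4 (adjusted p of at least 0.0582, 0.0613 and 0.0555). Elovl7 was lost without any array but day 4 replicate 2 (adjusted p up to 0.224) and Slc25a20 without any but day 4 replicate 1 (up to 0.279). Leaving out day 7 replicate 1 ended the calls of Acaa2 (adjusted p 0.0749), Acsl4 (0.0522), Elovl2 (0.126), Pfkp (0.0513), Bnip3 (0.11) and Ldha (0.192). Leaving out day 7 replicate 2 ended those of Acaa2 (adjusted p 0.0728), Acsl4 (0.0924), Ldha (0.108) and Ppargc1a (0.124). Without day 4 replicate 1 Bnip3 (0.0637) and Ppargc1a (0.0618) did not pass.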

How the data were processed

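Each array has 1 log2 signal per probe set, which the authors deposited after RMA normalization in Partek 6.5, as the submitters' processing notes list; the settings are not given in the sources used here. RMA pulls the arrays to a common distribution, which hides any shift common to most genes. Values were used as deposited. The array holds 41345 probe sets; the platform's gene table gives 1 symbol for 23521 and several for 1814, and leaves 16010 unnamed here, which gave 22180 genes. Symbols were checked against RefSeq (GRCm38.p6; 23328 identifiers found, 0 symbols changed). The day was fitted over all genes with limma 3.58.1 in R 4.3.3 (lmFit and eBayes, no trend, 2 residual and 5.07 prior degrees of freedom), two-sided, with Benjamini-Hochberg adjustment over all genes and a call at an adjusted p under 0.05. The fit was tested on simulated data. SE is the moderated standard error. Lists are described by counts, with no test over a list. Genes of other lists were named by a rule: in each list, of the genes called with days fully apart, the 3 that rose most and the 3 that fell most, or fewer where fewer were called. For marker lists the named genes are given only where a result turns on them. The members and lists were chosen with earlier results of these data known. The fit was repeated with a block for replicate number, without each array, after quantile normalization or median centring, with the dimmest genes removed (below the 25th or 50th percentile), with a trended robust prior, and with probe sets of a gene averaged.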

Additional observations from a re-analysis of the deposited data

How the results depend on the processing

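The count of 0 of the 30 lipid synthesis genes called held under every alternative except 3, where 1 gene, Fads1, passed. These were median centring, the 50th percentile filter, and the trend with robust prior. Over all genes 2324 were called, and 887 to 2500 with 1 array left out (887 without day 7 replicate 1, 994 without day 7 replicate 2). Of the 6 neighbouring lists 6 genes were called higher and 8 lower. These counts were 11 higher with the 50th percentile filter, 12 higher and 16 lower with the trend and robust prior, and 1 to 5 higher and 2 to 7 lower with 1 array left out. With 1 array left out the median difference of the enzymes up to lanosterol ran from -0.36 to -0.032 and that of the later enzymes from 0.074 to 0.48, with 5 to 8 of the latter above 0. With 1 array left out, 1 sample stands for its day and is assumed to vary like the other day. Differences of uncalled genes then changed sign: Hmgcs1 (-0.092 to 0.34), Mvk (-0.42 to 0.18), Lss (-0.37 to 0.0035), Cyp51 (-0.022 to 0.51), Tm7sf2 (-0.015 to 0.16), Msmo1 (-0.041 to 0.49), Sc5d (-0.016 to 0.38), Srebf2 (-0.072 to 0.22), Stard4 (-0.25 to 0.23), Fasn (-0.0054 to 0.22), Acaca (-0.036 to 0.29), Acly (-0.15 to 0.12), Scd1 (-0.0093 to 0.42) and Fads2 (-0.012 to 0.11). Median centring turned Stard4 (0.032) and Acly (0.025). The cause was not tested.

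The replicate numbers are shared between days, but nothing in the labels pairs the samples. The correlation over all genes between the days' replicate differences was 0.19. With the replicate number as a block 2770 genes and 0 of the 30 lipid synthesis genes were called, and Slc25a20 had an adjusted p of 0.0577. Elovl7 had 0.0503 with quantile normalization.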
